A study of Mus musculus with 12 samples.

Results

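The 9 genes Kmt2a, Kmt2b, Kmt2c, Kmt2d, Kmt2e, Setd1a, Setd1b, Setd7 and Smyd3 were chosen by name, as members of the families of enzymes that methylate lysine 4 of histone H3 (H3K4). They were found among 18911 genes by matching Ensembl identifiers to GRCm38 symbols, and all 9 passed the filter on low counts that 17076 genes passed. The cells were mouse neural progenitor cells (mNPCs), grown from the hippocampus of newborn (P0) pups on a C57BL/6J background, and poly(A) RNA was sequenced from 12 libraries, 3 for each of 4 genotypes. Kmt2a+/+ cells carried normal Kmt2a. Kmt2a+/LSL cells carried 1 allele with a loxP-flanked stop cassette (LSL) in intron 1 of Kmt2a, a model of Wiedemann-Steiner syndrome, and their libraries are titled as a knockout although the genotype is heterozygous. Nes-Cre+/- Kmt2a+/+ cells carried the nestin-Cre transgene alone, and Nes-Cre+/- Kmt2a+/LSL cells carried both. Nestin regulatory sequence drives Cre in neural precursors, so the cassette can be excised before birth. Whether the 3 libraries of a genotype came from separate pups or litters, or from pooled pups, is not given in the sources used here, so the p-values measure the spread between libraries.

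Methylation of H3K4 marks active chromatin, with trimethylation at promoters and monomethylation at enhancers. The enzymes work in multiprotein complexes around a shared core of WDR5, RBBP5, ASH2L and DPY30. KMT2A and KMT2B are paralogs that bind menin, and KMT2A is needed for postnatal neurogenesis and for memory. KMT2C and KMT2D form a pair that monomethylates enhancers, and SETD1A and SETD1B form a pair that deposits much of the trimethylation at promoters. KMT2E carries a SET domain without established H3K4 methyltransferase activity, whereas SETD7 and SMYD3 are small enzymes outside these complexes that also modify other proteins. Loss of 1 copy of several of these genes causes a neurodevelopmental disorder in people. The question of the comparison within the family is whether the levels of the other enzymes differ where that of Kmt2a is reduced.

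Kmt2a (ENSMUSG00000002028) lies on the minus strand of chromosome 9 at chr9:44803355-44881296, and its longest annotated transcript has 36 exons and 16470 bases. Intron 1 of transcript Kmt2a-201, the intron type that holds the cassette, spans chr9:44853007-44880848, or 27842 bases. The position of the cassette inside it was not analysed here. The gene has 6 annotated transcripts, and the deposited value sums the estimated counts of all of them. The other genes are Kmt2b (chr7:30568858-30588726), Kmt2c (chr5:25271798-25498783), Kmt2d (chr15:98831669-98871204), Kmt2e (chr5:23434441-23504235), Setd1a (chr7:127776670-127800122), Setd1b (chr5:123142193-123168629), Setd7 (chr3:51515319-51560879) and Smyd3 (chr1:178951960-179518041), all in GRCm38. Setd1a is the least certain measurement, because 51.8% of the 31-base words in its transcripts also occur in other genes, chiefly Gm49388, an annotated protein-coding gene on the same strand with no row in the count table. For Kmt2e the share was 8.89%, chiefly with Srpk2 on the opposite strand. In the other 7 genes it was at most 2.45%, and no more than 7 words were shared between members. Whether reads were counted by strand is not given in the sources used here, so reads of Kmt2e and Srpk2 where their exons overlap cannot be told apart.

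Library totals lay between 18280008 and 28596919 estimated counts, so the 9 genes were well covered, with Smyd3 the lowest at 253 to 310 normalized counts per library. A normalized count here is a count divided by the TMM-scaled library size, times the mean scaled size of 23956498. Neural progenitor markers were abundant (all 11 of 11 listed genes were present, including Sox2, Nes and Vim). The median normalized counts of Sox2 and Nes were 8201 and 12108. Of the oligodendrocyte lineage list, Olig1 and Olig2, which progenitors also express, had medians of 74301 and 20732, whereas those of Sox10 (112.9), Mbp (37.8) and Mog (0.0) were low. Of the neuron list, Map2 had a median of 31692 and Stmn2, Neurod1 and Rbfox3 had medians of 1.0, 4.0 and 37.4. Astrocyte markers such as Aldh1l1 (19886) and Gfap (2226) were present. Microglia, endothelial and meningeal lists summed to at most 49.9, 75.4 and 52.4 normalized counts in any library, and the defining markers Aif1, Tmem119, Cdh5 and Mog were at 0 in all libraries of at least 1 genotype. Fewer cells of a type and less RNA per cell cannot be told apart in such bulk samples.

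One library stood apart over many genes, 7 of the 9 members among them. In Kmt2a+/+ replicate 1, which also had the lowest total, Kmt2b was at 607 normalized counts, whereas Kmt2a+/+ replicates 2 and 3 were at 2739 and 3114 and the other 11 libraries together spanned 1933 to 3114. Kmt2d was at 1063 against 3505 and 3971 in the other Kmt2a+/+ libraries. Setd1a was at 704 against 1656 and 1761, and Setd1b at 620 against 1884 and 1741. For all 4 genes this library was the lowest of the 12. Kmt2e was at 5580 against 4313 and 3407, Kmt2c at 8650 against 7796 and 6513, and Setd7 at 4117 against 3837 and 3092, and for these 3 genes it was the highest of the 12. Kmt2a and Smyd3 lay within the range of the other 11 libraries. Over all 17076 tested genes this library was the lowest for 5825 (34.1%) and the highest for 5123.

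The 4 members that were low in that library had a longest transcript of higher GC content than the other 5. They had 59.1% (Kmt2b), 59.0% (Setd1b), 58.4% (Kmt2d) and 57.0% (Setd1a) G and C bases, and the 3 high genes had 45.9% (Kmt2e), 47.6% (Kmt2c) and 47.6% (Setd7). Smyd3, which lay within the range of the other libraries, had 47.0%, lower than Kmt2c and Setd7. Kmt2a had 50.6%, and its ratio to the mean of Kmt2a+/+ replicates 2 and 3 was 0.994. The corresponding ratios were 0.207 for Kmt2b, 0.284 for Kmt2d, 0.342 for Setd1b and 0.412 for Setd1a, but 1.45 for Kmt2e, 1.21 for Kmt2c, 1.19 for Setd7 and 1.13 for Smyd3. Among the low members the order was not strict, since Kmt2d had a lower ratio than Setd1b. Over the genes with a mean count of at least 50, the median log2 ratio was 1.26 in the decile of lowest GC content and -2.24 in the decile of highest. Across libraries, the median of the highest decile minus that of the lowest, each relative to the mean of the other 11 libraries, was -2.95 on the log2 scale in Kmt2a+/+ replicate 1. It was -0.73 in Nes-Cre+/- Kmt2a+/LSL replicate 1, where Kmt2b, Kmt2d, Setd1a and Setd1b all had their second lowest value, and 1.22 in Kmt2a+/+ replicate 3, and it lay between -0.06 and 0.56 in the other 9. The summed oligodendrocyte lineage markers were likewise lowest in Kmt2a+/+ replicate 1 (28168, against at least 79893 elsewhere), as were the astrocyte markers (18386, against at least 28918 elsewhere), and the neuron sum was highest (45924, against at most 41087 elsewhere). The progenitor sum was also highest (323299, against at most 219634), which rested on Fabp7 (214648 counts), and without Fabp7 it lay within the range of the other 11 libraries (108651, against 100360 to 122444). The part of GC content or cell composition in the low values was not tested. Comparisons of the members with Kmt2a+/+ are therefore given with and without this library.

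**Figure D1:**
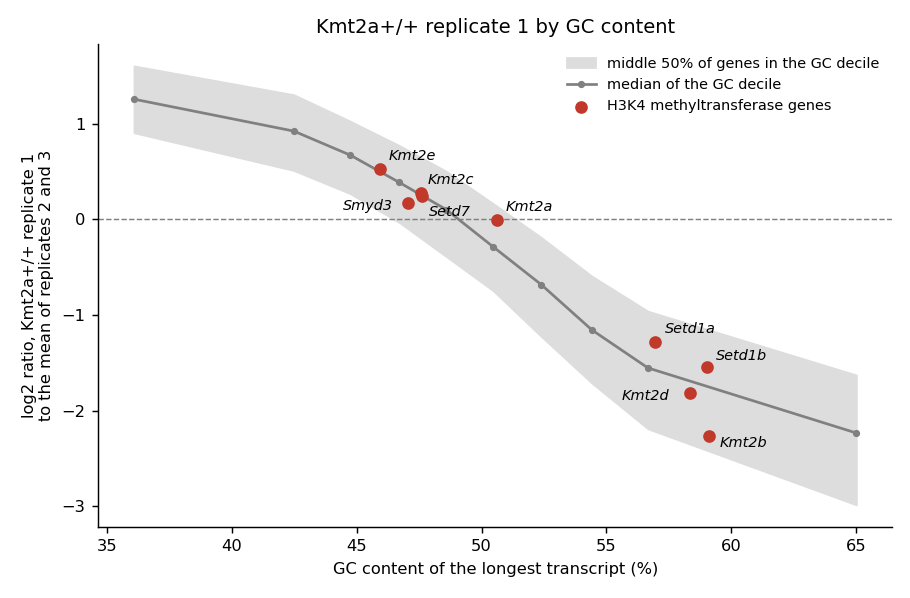
Log2 ratio of normalized counts in Kmt2a+/+ replicate 1 to the mean of Kmt2a+/+ replicates 2 and 3 (y axis) against the GC content of the longest annotated transcript in percent (x axis). Red points are the 9 H3K4 methyltransferase genes, and the grey line and band give the median and the middle 50% of all genes with a mean count of at least 50 in each decile of GC content, drawn at the middle of its range. Kmt2b, Kmt2d, Setd1a and Setd1b lie between -1.28 and -2.27, and Kmt2a lies at -0.01.

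Levels within the family were compared per length, as normalized counts per kilobase of the longest annotated transcript. By this length Kmt2e had the highest mean share of the summed level of the 9 genes, 19.6% ± 3.30 (SD, n = 12 libraries). Kmt2c (17.8% ± 1.76) and Setd7 (17.6% ± 1.51) followed, and then Kmt2a (13.4% ± 2.49) and Kmt2b (10.1% ± 2.66). The shares of Setd1a (8.61% ± 1.59), Setd1b (5.86% ± 1.29) and Kmt2d (5.49% ± 1.47) were lower. Smyd3 contributed 1.48% ± 0.107. The shares without Kmt2a+/+ replicate 1 were 18.8% for Kmt2e, 17.5% for Kmt2c, 17.3% for Setd7, 13.2% for Kmt2a and 10.8% for Kmt2b. Kmt2d ranked next to last by this length although it had 3019 normalized counts on average, since its longest transcript has 19823 bases. Neighbours in this order were not all separable. Kmt2e exceeded Kmt2c in 9 of 12 libraries, Kmt2c exceeded Setd7 in 8 and Setd1b exceeded Kmt2d in 9. For Kmt2a and Kmt2b the order differed between genotypes. Kmt2a exceeded Kmt2b and Setd1a in all 9 libraries of the other 3 genotypes and lay below both in all 3 Kmt2a+/LSL libraries, in which the mean shares were 9.36% ± 0.243 for Kmt2a, 11.4% ± 1.29 for Kmt2b and 9.69% ± 0.253 for Setd1a (SD, n = 3). By this length Kmt2a thus had rank 6 of the 9 members in Kmt2a+/LSL and rank 4 in each of the other genotypes. The paper reports a shift in Kmt2a+/LSL cells from the full-length Kmt2a transcript to a truncated one. The longest transcript therefore understates the per-length level of Kmt2a in that genotype. Whether the lower rank would remain with a length that follows transcript use was not tested. Setd7 exceeded Kmt2a, Setd1a exceeded Setd1b and Kmt2d exceeded Smyd3 in all 12, and Kmt2b exceeded Setd1a in 11. Over the 11 libraries without Kmt2a+/+ replicate 1 these counts were 8 for Kmt2e over Kmt2c, 7 for Kmt2c over Setd7, 8 for Kmt2a over Kmt2b, 8 for Setd1b over Kmt2d and 11 for the other pairs. The order depended on the length used. With the union of all exons Setd7 exceeded Kmt2a in only 3 of 12 libraries and Setd1b exceeded Kmt2d in 0, while Kmt2d exceeded Smyd3 in all 12. Kmt2a exceeded Kmt2b in 10 of 12 libraries with the union of all exons and in 1 with the median transcript length. The split of this pair between genotypes by the longest transcript thus did not hold with either other length. With the median transcript length Kmt2d had the highest share (20.7%), followed by Kmt2b (18.6%), and Kmt2e had 14.7%, so the leading member depended on the length.

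**Figure D2:**
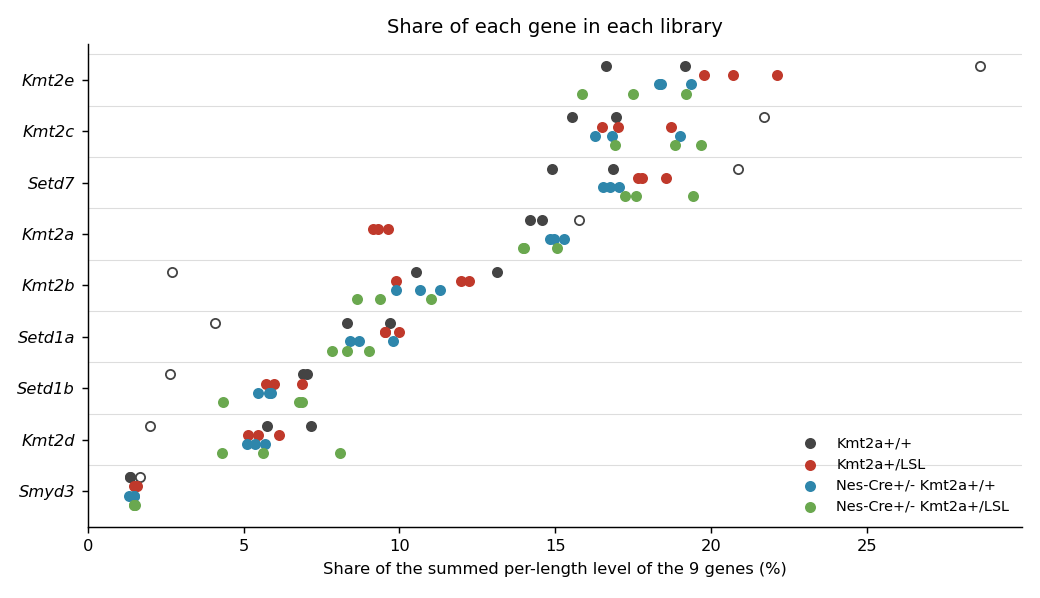
Share of each gene in the summed per-length level of the 9 genes, in percent (x axis), for each library (points, coloured by genotype; the open circle is Kmt2a+/+ replicate 1). The 3 Kmt2a+/LSL libraries lie at 9.15% to 9.63% for Kmt2a, below the other 9 libraries at 13.95% to 15.8%, and the open circle stands outside the other points for most other genes.

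The first comparison asked how far the level of Kmt2a was reduced in the cells with the LSL allele. Kmt2a had 6916, 7194 and 6720 normalized counts in Kmt2a+/+ and 3972, 3979 and 3991 in Kmt2a+/LSL, and the 2 genotypes did not overlap. The means were 6943 ± 238 and 3981 ± 9.39 (SD, n = 3 each). The fitted level in Kmt2a+/LSL was 0.573 of that in Kmt2a+/+ (log2 fold change -0.80, SE 0.125, 95% interval of the ratio 0.474 to 0.693). Of all tested genes, 1.76% had every Kmt2a+/LSL library below every Kmt2a+/+ library, and Kmt2a was the only member that did. The exact permutation test gave p = 0.1, the smallest that 3 against 3 libraries allow. In edgeR's quasi-likelihood test the Benjamini-Hochberg adjusted p was 0.281, and over all genes that test called 0 of 17076 genes (0%) and 0 of the 9 members, although 306 genes (1.79%), with Kmt2a as the only member, had an unadjusted p under 0.05. Without Kmt2a+/+ replicate 1 the ratio was 0.572 and edgeR's adjusted p was 0.0437, with 2 genes called (0.0118%), Kmt2a among them. With an offset for GC content in all 12 libraries the ratio was 0.550 and edgeR's adjusted p was 0.0357, again with 2 genes called (0.0117%). DESeq2's Wald test called 7 genes (0.041%) and of the 9 members only Kmt2a, with an adjusted p of 6.089e-18. The log2 fold change stayed between -0.86 and -0.78 in all 25 alternatives run for it, and its adjusted p was under the threshold in 6 of them and ranged from 6.089e-18 to 1.

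None of the other 8 members was called in this comparison by edgeR or by DESeq2, and for 4 of them the interval was wide. Their log2 fold changes in Kmt2a+/LSL relative to Kmt2a+/+ lay between -0.18 (Kmt2c) and 0.24 (Setd1a). The median was -0.03, beside 0.00 over all tested genes, and 4 of the 8 were above 0. For Kmt2b, the closest paralog, the libraries held 2543, 2177 and 2745 normalized counts in Kmt2a+/LSL. All 3 lay above replicate 1 of Kmt2a+/+, and 2 of them lay below both other Kmt2a+/+ libraries. The fitted ratio for Kmt2b was 1.15, with a 95% interval from 0.599 to 2.23. The intervals of Kmt2d (0.554 to 1.82), Setd1a (0.775 to 1.80) and Setd1b (0.590 to 1.70) were similarly wide.

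Leaving out Kmt2a+/+ replicate 1 changed the sign of several of these values and narrowed the intervals. Kmt2b then had a log2 fold change of -0.24 (SE 0.155, interval -0.58 to 0.10), since the remaining Kmt2a+/+ libraries averaged 2927 ± 265 (SD, n = 2) against 2488 ± 288 (SD, n = 3) in Kmt2a+/LSL. Kmt2d was at -0.39 (SE 0.208, interval -0.84 to 0.07) and Setd1b at -0.36 (SE 0.193, interval -0.78 to 0.07). Kmt2e was at 0.03 (interval -0.26 to 0.33) and Setd1a at -0.07 (interval -0.34 to 0.20). In that fit 2 of the 8 members were above 0, the median was -0.08, and the highest upper bound was a ratio of 1.27, for Smyd3. With the GC offset the highest upper bound was 1.26, for Kmt2b, whose log2 fold change was then 0.10 (interval -0.14 to 0.34). With replicate 1 in the fit and no offset, the upper bounds of the 8 members reached 2.23 (Kmt2b), so that these data limit a rise of Kmt2b only loosely there.

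**Figure D3:**
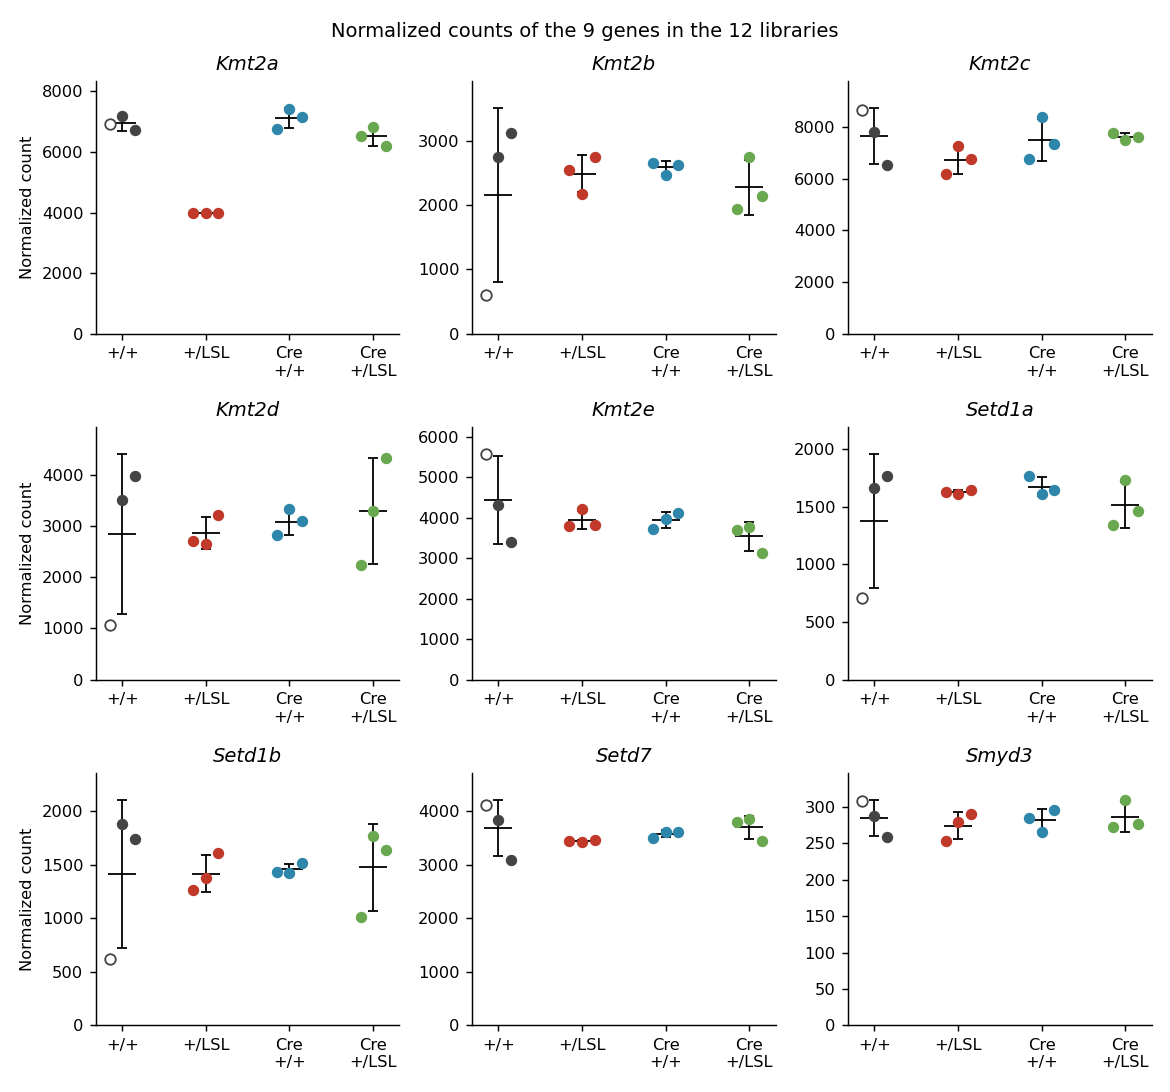
Normalized counts (y axes, starting at 0) of the 9 genes in the 12 libraries by genotype (x axes; Cre marks Nes-Cre+/-). Points are libraries, the open circle is Kmt2a+/+ replicate 1, and bars give the mean and SD of 3 libraries. Kmt2a is at 3972 to 3991 in Kmt2a+/LSL and at 6205 to 7427 in the other 9 libraries, whereas for each other gene the range of the Kmt2a+/LSL points overlaps with that of the pooled other 9 libraries.

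With the same length in every genotype, the share of Kmt2a in the family was lowest in Kmt2a+/LSL. A single length was used for Kmt2a in all genotypes, although its annotated transcripts run from 521 to 16470 bases, and the use of each transcript was not analysed here. The per-length level and share of Kmt2a compare genotypes only where transcript use is the same, and both are too low for a genotype that uses shorter transcripts more. By the shift to a truncated transcript that the paper reports, Kmt2a+/LSL is such a genotype. The paper describes this shift as reversed with nestin-Cre. How much of the lower per-length level and share in Kmt2a+/LSL comes from the length used was not tested. The ratio of counts likewise compares reads rather than molecules, since a shorter transcript yields fewer reads. Kmt2a made up 14.8% ± 0.812 of the summed per-length level in Kmt2a+/+ and 9.36% ± 0.243 in Kmt2a+/LSL (SD, n = 3 each). With nestin-Cre its share was 15.02% ± 0.246 in Kmt2a+/+ cells and 14.3% ± 0.614 in Kmt2a+/LSL cells. In normalized counts per kilobase, Kmt2a was at 422 ± 14.4 in Kmt2a+/+ and 242 ± 0.570 in Kmt2a+/LSL, and the other 8 members summed to 2425 ± 199 and 2342 ± 71.8. The sum over the other 8 was 2446 ± 70.3 with nestin-Cre alone and 2368 ± 154 in Nes-Cre+/- Kmt2a+/LSL, and 2515 ± 174 (n = 2) in Kmt2a+/+ without replicate 1. The mean of the other members' sum was thus the lowest in Kmt2a+/LSL of the 4 genotypes, by less than the SD within Kmt2a+/+. Replicate 1 of Kmt2a+/+ kept a sum (2245) close to the others with its low members at 607 to 1063 normalized counts and its high ones at 4117 to 8650.

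The second comparison asked how the level of Kmt2a differed when nestin-Cre was present beside the LSL allele. In Nes-Cre+/- Kmt2a+/LSL it had 6535, 6814 and 6205 normalized counts, with no overlap with Kmt2a+/LSL. The mean was 6518 ± 305 (SD, n = 3). The ratio to Kmt2a+/LSL was 1.64 (log2 fold change 0.71, SE 0.125, 95% interval of the ratio 1.35 to 1.98). The exact permutation test again gave its smallest p, 0.1. In edgeR's test the adjusted p was 1, and 0 genes were called (0%), while 275 (1.61%) had an unadjusted p under 0.05, Kmt2a among them. Without Kmt2a+/+ replicate 1 edgeR called 1 gene (0.00589%), and Kmt2a had an adjusted p of 0.067. DESeq2 called 7 genes (0.041%), with an adjusted p of 1.237e-12 for Kmt2a and no other member.

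For 2 further members the libraries of these genotypes did not overlap. Kmt2c, the enhancer monomethyltransferase paired with Kmt2d, had 6191, 7275 and 6744 normalized counts in Kmt2a+/LSL and 7768, 7482 and 7617 when nestin-Cre was also present. The ratio was 1.13, with an interval from 0.895 to 1.43. Kmt2e had 3796, 4206 and 3834 in Kmt2a+/LSL and 3706, 3781 and 3132 in Nes-Cre+/- Kmt2a+/LSL, a ratio of 0.897 with an interval from 0.681 to 1.18. Both intervals include 1 and neither gene was called. Such a separation was found upward in 3.54% and downward in 3.57% of all tested genes. The other 6 members overlapped. Over the 8 members other than Kmt2a the median log2 fold change was 0.06, beside 0.00 over all genes, with the lowest at -0.16 (Kmt2e) and the highest at 0.20 (Kmt2d).

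The level in Nes-Cre+/- Kmt2a+/LSL was compared with that in the controls that carry nestin-Cre. Kmt2a had 6777, 7427 and 7167 normalized counts in Nes-Cre+/- Kmt2a+/+ (mean 7124 ± 327, SD, n = 3). The ratio of Nes-Cre+/- Kmt2a+/LSL to these controls was 0.915, with a 95% interval from 0.758 to 1.10, which includes 1 and also a level about as low as 0.758 of the controls. The libraries overlapped and the exact permutation test gave p = 0.2. Nestin-Cre alone left Kmt2a at 1.03 of the Kmt2a+/+ level (interval 0.850 to 1.24, exact permutation p = 0.5). No member was called in either comparison by edgeR (0 genes, 0%, in each) or by DESeq2, which called 3 genes in each (0.0176%). The log2 fold changes of the other 8 members lay between -0.17 (Kmt2e) and 0.28 (Setd1a) for nestin-Cre alone. Between the 2 genotypes with nestin-Cre they lay between -0.18 (Kmt2b) and 0.09 (Kmt2d).

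The effect of the LSL allele on Kmt2a differed between cells without and with nestin-Cre by 0.67 on the log2 scale (SE 0.176, interval 0.29 to 1.06). This contrast uses all 12 libraries. Its unadjusted p in edgeR was 0.00263 and its adjusted p was 0.9999. In all, 295 genes (1.73%) had an unadjusted p under 0.05 and 0 genes (0%) were called. DESeq2 gave an adjusted p of 2.717e-05 for Kmt2a and called 10 genes (0.0586%), with no other member. For the other 8 members the contrast lay between -0.39 (Kmt2b) and 0.21 (Kmt2c) and was not called.

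Setting Kmt2a+/LSL against the mean of the other 3 genotypes gave the narrowest intervals. Kmt2a was the only member whose 3 Kmt2a+/LSL libraries lay below all of the other 9, which 0.199% of tested genes did, and the two-sided exact permutation test of 3 against 9 libraries gave p = 0.00909, the smallest it allows. The fitted ratio was 0.581 (log2 fold change -0.78, SE 0.106, interval 0.494 to 0.683). In edgeR the adjusted p was 0.103, with 1 gene called (0.00586%), Grb10, and 205 genes (1.2%) at an unadjusted p under 0.05. Without Kmt2a+/+ replicate 1 the adjusted p of Kmt2a was 0.00548, with 2 genes called (0.0118%), and with the GC offset it was 0.0132, with 2 genes called (0.0117%). It was under the threshold in 7 of 23 alternatives, and leaving out each library in turn gave edgeR adjusted p-values from 0.00548 to 1, with a call in 1 of 12 fits. Grb10 was called in 2 of those 12 fits, with adjusted p-values from 0.00234 to 0.336. DESeq2 called 4 genes (0.0234%), with an adjusted p of 2.6e-25 for Kmt2a. No member had its 3 Kmt2a+/LSL libraries above all of the others, as 0.164% of genes did.

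Of the other 8 members, Kmt2c had the lowest log2 fold change in that comparison, -0.17 (SE 0.127, interval -0.45 to 0.11), with an exact permutation p of 0.0727. Its mean was 6736 ± 542 in Kmt2a+/LSL (SD, n = 3) and 7590 ± 684 over the other libraries (SD, n = 9). The remaining members lay between -0.10 (Kmt2d) and 0.10 (Setd1a), with exact permutation p-values from 0.227 to 0.882. The median over the 8 was -0.04, beside 0.00 over all genes, and 2 of the 8 were above 0. Without Kmt2a+/+ replicate 1, Kmt2b was at -0.05 (interval -0.30 to 0.21) and Kmt2d at -0.23 (interval -0.57 to 0.12). The highest upper bound over the 8 was then a ratio of 1.22, for Kmt2e, and with the GC offset it was 1.18, for Kmt2b.

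**Figure D4:**
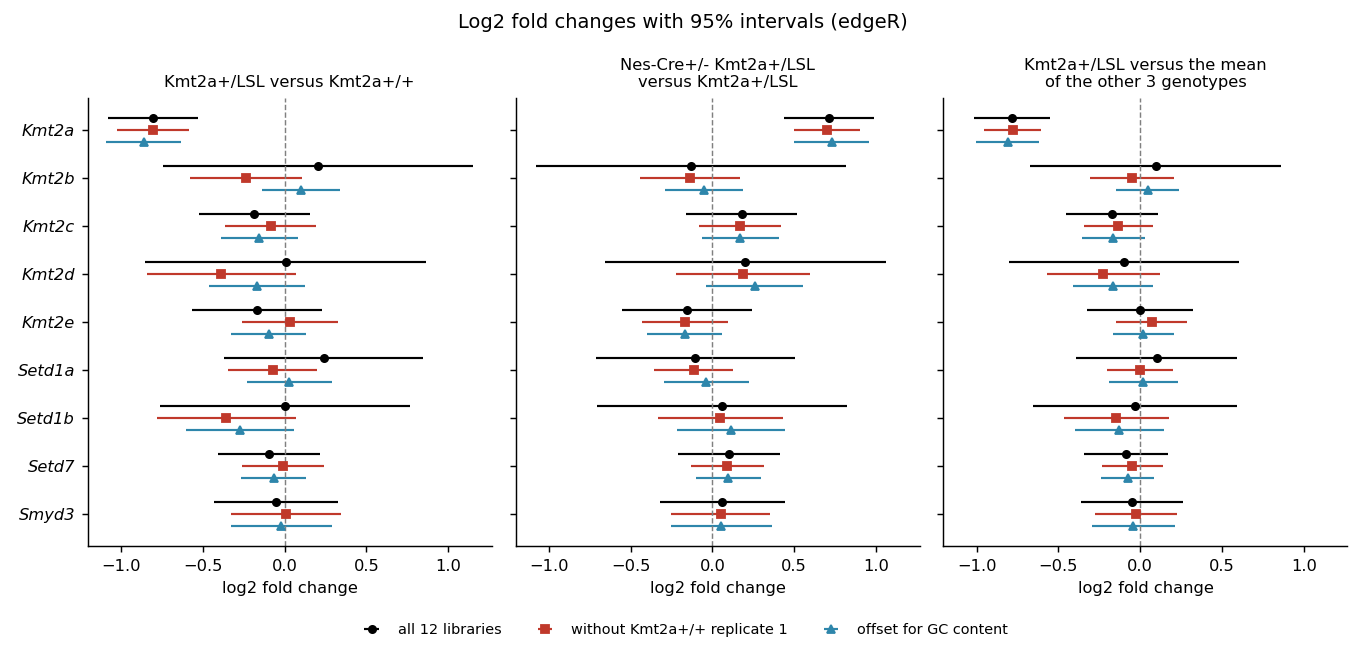
Log2 fold changes (x axes) of the 9 genes in 3 comparisons, from edgeR with 95% intervals (bars), for all 12 libraries (black circles), without Kmt2a+/+ replicate 1 (red squares) and with an offset for GC content (blue triangles). Kmt2a stays away from 0 in each, and the intervals of Kmt2b, Kmt2d, Setd1a and Setd1b, which reach SEs of 0.432, 0.391, 0.277 and 0.348 in the first comparison, narrow in both other fits.

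Kmt2b and Setd1a moved together over the 12 libraries (Pearson's r of log2 CPM 0.990) and Kmt2d and Setd1b did as well (0.951). Without Kmt2a+/+ replicate 1 these values were 0.891 and 0.826 over 11 libraries, whereas that of Kmt2b and Kmt2d was 0.897 over 12 libraries and 0.459 over 11. Kmt2a and Kmt2b had a value of -0.13 over 12 libraries and 0.15 over 11. These correlations are descriptions over libraries that share depth and GC differences.

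The genes most like Kmt2a over the 12 libraries, of 11676 compared, were Grb10 (r = 0.958), Dmrt3 (0.938), Bcor (0.878), Bhlhe22 (0.835) and Sp9 (0.766). Grb10, an imprinted adaptor of growth factor receptors, had 1882, 2049 and 1522 normalized counts in Kmt2a+/LSL and a mean of 4465 ± 540 in Kmt2a+/+. Its mean was 4883 ± 449 with nestin-Cre alone and 4607 ± 362 when both alleles were present (SD, n = 3 each). Dmrt3, a transcription factor of the developing forebrain, had 136 ± 32.3 in Kmt2a+/LSL and 312 ± 38.5, 325 ± 45.7 and 314 ± 44.2 in the other genotypes. Bcor, a corepressor, had 582 ± 18.3 in Kmt2a+/LSL and between 696 and 786 on average elsewhere. Without Kmt2a+/+ replicate 1 the values of r were 0.957, 0.943 and 0.895 for these 3 genes. The genes most like Kmt2b were Fastk (0.997), Mier2 (0.996), Zc3h3 (0.995), Zdhhc7 (0.995) and Scrib (0.995), all with a GC content between 57.4% and 61.2%. Fastk had 325 normalized counts in Kmt2a+/+ replicate 1 and 1291 to 2191 in the other 11 libraries, and over those 11 its r with Kmt2b was 0.964.

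All 15 listed subunits of the complexes were tested, and edgeR called none in any comparison, nor did DESeq2 with all 12 libraries. Over all 17076 genes edgeR called 1 (0.00586%) against the other 3 genotypes and 0 (0%) in each other comparison. DESeq2 called between 3 (0.0176%) and 10 (0.0586%), so the lack of calls is not particular to the subunits. In Kmt2a+/LSL against Kmt2a+/+, 9 of the 15 were above 0 and 6 below, with a median log2 fold change of 0.02 beside 0.00 over all genes. With Kmt2a+/+ replicate 1 left out, 7 of the 15 were above 0 and the median was -0.02. Several directions rested on that library. Of the core, Wdr5 had 1024 ± 95.1 normalized counts in Kmt2a+/LSL and 954 ± 172 in Kmt2a+/+ (SD, n = 3 each), and 1036 ± 136 in Kmt2a+/+ without replicate 1 (n = 2). Ash2l had 2382 ± 112 in Kmt2a+/LSL and 2347 ± 348 in Kmt2a+/+, or 2147 ± 60.8 without that library. Rbbp5 had 454 ± 95.3 and 559 ± 140, or 479 ± 26.6 without it. Dpy30 was counted at only 14.1 ± 3.13 and 8.51 ± 7.38, too few for a ratio to be informative.

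Hcfc1, a cofactor of several of the complexes, had 7049 ± 539 in Kmt2a+/LSL and 3159, 6998 and 9107 in the Kmt2a+/+ libraries. Its log2 fold change was 0.13 (SE 0.293) with all libraries and -0.19 (SE 0.145) without replicate 1. Men1, which encodes menin, the partner of KMT2A and KMT2B, had 842 ± 69.1 in Kmt2a+/LSL and 338, 912 and 1072 in Kmt2a+/+, and its log2 fold change went from 0.12 to -0.24. Psip1, which encodes the chromatin tether LEDGF, had 6906 ± 1050 in Kmt2a+/LSL and 16020, 5250 and 5138 in Kmt2a+/+, and its log2 fold change went from -0.35 to 0.41. Without replicate 1 the 95% interval of the Psip1 value was 0.08 to 0.75, and its edgeR adjusted p was 0.551. Cxxc1, the subunit of the SETD1A and SETD1B complexes that binds unmethylated CpG, had 1266 ± 123 in Kmt2a+/LSL and 453, 1512 and 1592 in Kmt2a+/+, and its log2 fold change went from 0.09 to -0.30. Hcfc2, a paralogue of Hcfc1, had 738 ± 32.5 in Kmt2a+/LSL and 1251, 739 and 584 in Kmt2a+/+, and its log2 fold change went from -0.22 (SE 0.242) to 0.16 (SE 0.135). The sign thus turned for these 5 genes when replicate 1 was left out, and none was called in either fit.

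Kdm6a, an H3K27 demethylase, had 749 ± 81.5 in Kmt2a+/LSL and 789 ± 156 in Kmt2a+/+, and Paxip1 had 1100 ± 124 and 1084 ± 263. For both, replicate 1 lay within the range of the other 11 libraries, but the sign of the log2 fold change turned without it as well, from -0.08 to 0.09 and from 0.02 to -0.11. Ncoa6 had 2347 ± 87.7 and 2578 ± 197, with log2 fold changes of -0.14 and -0.10. Pagr1a had 216 ± 56.8 and 134 ± 39.5, with 0.69 and 0.48. Wdr82, a further subunit of the SETD1A and SETD1B complexes, had 5582 ± 234 and 5158 ± 668, with 0.11 and 0.01. In Kmt2a+/LSL against Kmt2a+/+ only, 1 of the 15 subunits, Bod1l, had an unadjusted p under 0.05 in edgeR with all libraries. This stood beside 1.79% of all genes, and Bod1l is named for that reason. Other comparisons are not described here for single subunits. Without replicate 1 it was 1 of 15 again, Psip1, beside 8.95% of all genes. Bod1l had 1706 normalized counts in Kmt2a+/+ replicate 1, 584 and 424 in the other Kmt2a+/+ libraries and 277 to 511 in Kmt2a+/LSL. Its log2 fold change was -1.28 with replicate 1 and -0.44 without that library. Replicate 1 was the lowest of the 12 libraries for 6 of the 15 subunits, whose median GC content was 55.7%, and the highest for another 6, whose median was 46.0%.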

How the data were processed

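The authors pseudoaligned poly(A) RNA reads of 12 libraries with kallisto 0.48.0 to the GRCm38 (mm10) transcriptome and imported them by gene with tximport, so the deposited table holds whole-number estimated counts without normalization. Tests had been planned for counts and used these values unchanged. The members and lists were chosen with earlier results of these data known.

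The filter required a gene total above 10 counts and counts in 2 or more libraries. TMM-normalized counts of all 12 libraries entered a two-sided quasi-likelihood F-test in edgeR 4.0.16 (R 4.3.3), with a term for genotype, and genes were called at a Benjamini-Hochberg adjusted p under 0.05. Single genes were also compared by two-sided exact permutation tests. Comparisons that name the same genotype share its libraries. Named genes were the members, the listed subunits and the 5 genes of mean count 50 or more that were most correlated with Kmt2a or Kmt2b (log2 CPM, prior count 2).

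Alternatives were DESeq2 1.42.0, limma-voom 3.58.1, other filters and thresholds, a replicate block, fewer genotypes, each library left out, and other gene lengths. Robust quasi-likelihood, GC offsets (a curve fitted per library) and DESeq2 with the block or without Kmt2a+/+ replicate 1 were added after seeing the data, as were values of single subunits and of the level order without that library. The fits were tested on simulated counts drawn without GC differences between libraries. That test therefore does not cover a library such as Kmt2a+/+ replicate 1. Library totals were 18280008 to 28596919 counts, and the spread between libraries exceeded counting error. Strand setting and effective lengths are not given in the sources used here.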

Additional observations from a re-analysis of the deposited data

Results flagged for a closer look

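The effect of the LSL allele on Kmt2a differed between cells without and with nestin-Cre, by 0.67 on the log2 scale (SE 0.176), with an unadjusted p of 0.00263 in edgeR's test of the difference itself. The effect was -0.80 without nestin-Cre and -0.13 with it. All 3 Kmt2a+/LSL libraries lay below all 3 Kmt2a+/+ libraries, whereas the genotypes with nestin-Cre overlapped. The adjusted p over all genes was 0.9999 in edgeR and 2.717e-05 in DESeq2. Outliers within a genotype were not assessed by a test, since each genotype has 3 libraries.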

How the results depend on the processing

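The lower level of Kmt2a in Kmt2a+/LSL kept its direction in all alternatives, but its call depended on the tool and on Kmt2a+/+ replicate 1. The 3 libraries per genotype and a biological coefficient of variation of 0.368 limit what can be called.

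In Kmt2a+/LSL against Kmt2a+/+, edgeR called 0 genes, DESeq2 7, limma-voom 2, the GC offset 2 and DESeq2 without Kmt2a+/+ replicate 1 21, and 0 to 2 with each library left out. In each of these with calls, 1 member was called, Kmt2a (0 to 1 with libraries left out, 1 only without Kmt2a+/+ replicate 1). In Nes-Cre+/- Kmt2a+/LSL against Kmt2a+/LSL, DESeq2 called 7 genes, limma-voom 2, an adjusted p under 0.1 1, the GC offset 1 and DESeq2 without that library 7 (0 to 1 with libraries left out), with 1 member in both DESeq2 fits and limma-voom. For nestin-Cre alone the counts were 3 with DESeq2, 1 at an adjusted p under 0.1 and 5 with DESeq2 without that library, and between the genotypes with nestin-Cre 3 and 5. Against the other 3 genotypes, edgeR called 1 gene, DESeq2 4, limma-voom 4, the GC offset 2 and DESeq2 without that library 8 (0 to 2 with libraries left out), with 1 member in each of these alternatives (0 to 1 with libraries left out). For the difference between the effects, DESeq2 called 10 genes and 7 without that library, with 1 member each.

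Once genotype means were subtracted, libraries with the same number correlated at 0.0844 on average over 18 pairs (-0.0717 to 0.4158), beside -0.0407 over pairs with different numbers (up to 0.2876). Since same-numbered pairs were not all above 0.1 and no label ties a number to a litter or day, the number was not taken as a pairing. With a replicate block, edgeR gave Kmt2a -0.80 (adjusted p 0.852) against Kmt2a+/+ and called 0 genes against the other 3 genotypes. With the block and the GC offset edgeR called 0 genes against Kmt2a+/+, where Kmt2a had an adjusted p of 0.0892. The call of Kmt2a with the GC offset alone was thus lost there. In that fit edgeR called 1 gene in the second comparison and 2, with 1 member, against the other 3. DESeq2 with the block called 30, 16, 15, 15, 18 and 16 genes in the 6 comparisons, in the order of the report's first 4 followed by the other 3 genotypes and the difference, with 1 member in all but nestin-Cre alone and the genotypes with nestin-Cre.

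Signs near 0 turned. Against Kmt2a+/+, Kmt2b was at -0.15 with limma-voom and -0.24 with DESeq2 without Kmt2a+/+ replicate 1 (-0.24 to 0.57 with libraries left out). Kmt2d was at -0.018 with DESeq2 size factors, -0.017 with DESeq2, -0.31 with limma-voom, -0.0033 with at least 10 counts in every library and with 9 libraries, -0.0084 with 6, -0.17 with either GC offset and -0.39 without that library in DESeq2 (-0.39 to 0.32). Setd1b was at -0.024 in both DESeq2 versions, -0.35 with limma-voom, -0.0094, -0.0086 and -0.013 with the stricter filter, 9 and 6 libraries, -0.27 with either GC offset and -0.36 in DESeq2 without that library (-0.355 to 0.26). In that DESeq2 fit Kmt2e was at 0.025 (-0.33 to 0.033), Setd1a at -0.080 and with limma-voom -0.028 (-0.074 to 0.46), and Smyd3 at 0.0024 (-0.12 to 0.0096). With nestin-Cre alone Kmt2a was at -0.0011 with DESeq2 size factors, -0.0008 in DESeq2 with and without the block, -0.017 with the GC offset and -0.012 with the block added. Against the other 3 genotypes Kmt2b was at -0.049 with limma-voom and -0.059 in DESeq2 without that library (-0.049 to 0.21). Kmt2e was at 0.038 with limma-voom, 0.0026 with the block, 0.020 with either GC offset and 0.059 in that DESeq2 fit (-0.064 to 0.070). Setd1a was at -0.0096 in it, and Setd1b at 0.0089 with the block (-0.15 to 0.054). Kmt2d ranged from -0.23 to 0.0051 and Smyd3 from -0.093 to 0.0032 with libraries left out.

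With union exons Kmt2a's share was 18.4%, 11.6%, 18.4% and 17.6% in Kmt2a+/+, Kmt2a+/LSL and the same with nestin-Cre, and 16.5% over all libraries, and with the median transcript it was 10.8%, 6.21%, 10.2%, 9.71% and 9.21%. The median transcript moved Kmt2b to 18.6%, Kmt2c to 9.54%, Kmt2d to 20.7%, Kmt2e to 14.7%, Setd1a to 11.7%, Setd1b to 1.66% and Setd7 to 12.5%, and union exons moved Setd1a to 10.2% and Setd7 to 15.1%. Apart from these lengths and libraries left out, the cause of the changes was not tested.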

Other observations

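Of 31 listed names of other lysine methyltransferase genes, from the SET, SMYD and PRDM families and Dot1l, 30 were tested and none was called by edgeR in any comparison. Over all 17076 genes edgeR called 1 (0.00586%) against the other 3 genotypes and 0 (0%) in each other comparison. The lack of calls is therefore not particular to this list. In Kmt2a+/LSL against Kmt2a+/+, 16 were above 0 and 14 below, with a median log2 fold change of 0.00, the same as over all genes, and none had an unadjusted p under 0.05. The ends were Prdm16, a regulator of neural stem cells, at -0.55, and Setd4 at 0.85. In the libraries, Setd4 had 21.4 normalized counts in Kmt2a+/+ replicate 1, 57.1 and 83.1 in the other Kmt2a+/+ libraries and 89.8 to 113 in Kmt2a+/LSL. Prdm16 had 32.8, 469 and 137 in Kmt2a+/+. Kmt2a+/+ replicate 1 was the lowest of the 12 libraries for 9 of the 30 genes, with a median GC content of 52.4%, and the highest for 11, with a median of 45.4%, whereas over all 17076 tested genes it was the lowest for 5825 and the highest for 5123. Against the mean of the other 3 genotypes, 17 of the 30 were above 0, with a median of 0.01.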
